A study of Homo sapiens with 8 samples.

Results

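The microRNA processing and Argonaute pathway was examined through 10 genes: the Argonautes AGO1, AGO2, AGO3 and AGO4, the GW182 scaffold genes TNRC6A, TNRC6B and TNRC6C, the ribonuclease genes DROSHA and DICER1, and the export receptor gene XPO5. The genes were taken by name, and every m6A peak that overlapped their RefSeq bounds (GRCh38) by at least 1 bp was kept. This gave 37 of 29084 wild-type peaks and 36 of 23937 METTL3-knockout peaks. All 10 genes were found in the reference. A peak in either list was present in 12199 protein-coding or long noncoding genes.

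DROSHA cuts primary microRNA transcripts in the nucleus, XPO5 carries the resulting hairpins to the cytoplasm, and DICER1 trims them to the mature duplex. An Argonaute protein then holds 1 strand as guide, and the TNRC6 proteins bind Argonaute and recruit the deadenylation and decapping machinery that silences the target mRNA. N6-methyladenosine (m6A) is a base modification of RNA laid in the nucleus by a complex whose catalytic subunit is METTL3.

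The study measured m6A in chromosome-associated RNA of HEK293T cells, a line established from human embryonic kidney. The 8 libraries form 4 groups of 2 replicates: wild-type input, wild-type m6A immunoprecipitate (IP), METTL3 knockout input and METTL3 knockout IP. The RNA came from the chromosome fraction and was freed of DNA and ribosomal RNA. An EpiMark kit enriched its m6A, and libraries were made with a stranded SMARTer kit. Both genotypes are HEK293T with no treatment named in the labels, and neither the number of knockout clones nor the deleted part of METTL3 is given in the sources used here.

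The deposited files are 1 peak list per genotype, so no value below has a spread between replicates, and every difference lacks a replicate check. METTL3 itself held 2 wild-type and 0 knockout peaks, a difference that did not pass Fisher's exact test (unadjusted p = 0.505, adjusted p = 1). Of all protein-coding genes 13.0% had wild-type peaks alone, so these peaks do not check the knockout label. Peak lists do not measure expression, and they bear on the identity of the cells only through where peaks lie. Of 10 genes that HEK293T cells are known to transcribe, 7 held a peak in either list, as did 1 of 10 genes of other cell types (PTPRC) and 47.8% of all protein-coding genes. The only peaks of PAX2 and PAX8, among the 7, and that of PTPRC lay on the strand opposite to the gene. For NEFL, also among the 7, the strand of the gene was not available. Whole IP reads at each summit were recovered from the fold and p-value, and they ranged from 15 to 191 (median 48) at the wild-type peaks of the 10 genes and from 12 to 185 (median 51.5) at the knockout peaks. Over all peaks in protein-coding genes the medians were 26 and 33 reads. An IP read weighed less in the knockout fold than in the wild-type fold, so reads are compared within a list. Such reads are not independent molecules, and all intervals cover counting error only.

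More of the peaks lay in the TNRC6 genes, the longest of the 10, than in the Argonautes or the processing enzymes. TNRC6A, TNRC6B and TNRC6C together held 22 of the 37 wild-type and 22 of the 36 knockout peaks. The 4 Argonaute genes held 9 and 9, and DROSHA, DICER1 and XPO5 together held 6 and 5. By gene, TNRC6C held 9 wild-type and 7 knockout peaks, TNRC6B 7 and 10, TNRC6A 6 and 5, AGO3 5 and 3, DROSHA 4 and 3, AGO4 3 and 4, DICER1 2 and 1, and AGO2 1 and 1. AGO1 and XPO5 held 0 wild-type and 1 knockout peak each.

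**Figure D1:**
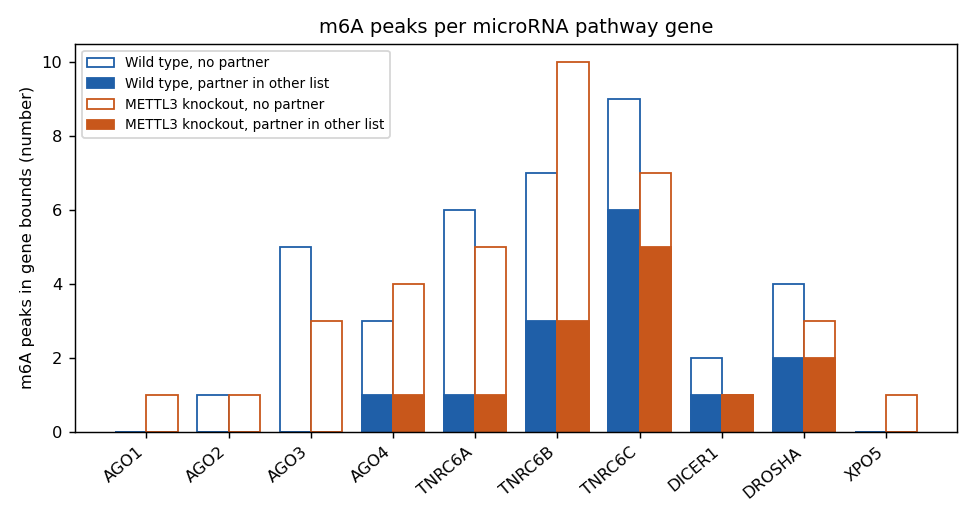
Number of m6A peaks within the bounds of each gene (y axis) for the wild-type list (blue) and the METTL3-knockout list (orange). The filled part of a bar counts peaks with a partner in the other list; TNRC6C has most of these, 6 of 9 wild-type and 5 of 7 knockout peaks.

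Both lists held peaks in 8 of the 10 genes. Among all protein-coding genes the share was 26.6%, and among the 5421 within the same range of length (50255 to 290975 bp) it was 53.2%. Genes of that range held a mean of 2.27 wild-type and 1.83 knockout peaks. Of them, 96.4% had fewer wild-type peaks than TNRC6C, and 98.5% had fewer knockout peaks than TNRC6B. These ranks are by number of peaks and are not corrected for length, and TNRC6B, at 290975 bp, sets the upper end of the range. Per 100 kb of gene, AGO4 and TNRC6C were the densest in wild type at 5.97 and 5.95 peaks, and AGO4 in the knockout at 7.96. The medians over protein-coding genes with a peak were 3.81 and 3.24. Of the 10 genes only AGO4 and TNRC6C exceeded the wild-type median. The knockout median was exceeded by TNRC6B (3.44), TNRC6C (4.63) and AGO4. Both medians leave out genes without a peak and are not matched for length. A short gene with any peak has a high density. The median length was 24092.5 bp over all protein-coding genes and 126879 bp over the 10 genes. A density below these medians therefore does not show that a gene held few peaks for its length.

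None of the 10 genes passed a test of its number of peaks between the lists. The 10 genes had 97.3 knockout peaks for every 100 in wild type, beside 80.4 over all protein-coding genes. More wild-type than knockout peaks were found in 5 genes (TNRC6C, TNRC6A, AGO3, DROSHA and DICER1), more knockout peaks in 4 and equal numbers in AGO2. Among protein-coding genes with a peak, 51.0% had more in wild type. In a two-sided Fisher's exact test of each gene's peaks against all others, with Benjamini-Hochberg adjustment over 12199 genes, 0 of the 10 genes passed, beside 0.0328% of all genes. The lowest unadjusted exact p was 0.331 (TNRC6B), and 0 of the 10 were below 0.05 unadjusted, beside 1.26% of all genes. This test compares lists and has little power at such counts. In simulated data with 8 wild-type peaks expected per gene and an 8-fold change, 0 of 200 changed genes were called, although 56.0% had an unadjusted p below 0.05.

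In 6 of the 10 genes some peaks of both lists lay at the same place, and these were in AGO4, the TNRC6 genes, DICER1 and DROSHA. Of the 37 wild-type peaks 14 overlapped a knockout peak of the same strand by 1 bp or more, and so had a partner (37.8%, 95% Clopper-Pearson interval 22.5 to 55.2), beside 21.3% of wild-type peaks in all protein-coding genes. Of the 36 knockout peaks 13 had a wild-type partner (36.1%, 20.8 to 53.8), beside 26.5%. The knockout interval includes its background, and the lower end of the wild-type interval is close to its own. Both intervals treat peaks as independent, although 6 of the 14 wild-type peaks lay in TNRC6C, with 5 knockout partners. Whether either share differs from its background was not tested. The wild-type share was 24.3% (9 of 37), beside 17.7%, when the overlap had to cover 50% of both peaks.

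Partners went with read support, as they did in all genes. In wild type, 0 of 5 peaks with up to 15 IP reads had a partner, 1 of 9 with 16 to 30 reads, 6 of 16 with 31 to 100, and 7 of 7 above 100. In all protein-coding genes the same classes gave 5.27%, 11.9%, 33.5% and 71.0%. In the knockout the counts were 0 of 1, 1 of 10, 5 of 18 and 7 of 7, beside 5.73%, 13.5%, 33.9% and 71.4%. Peaks above 30 reads made up 23 of 37 wild-type peaks in these genes, beside 41.2% in all protein-coding genes, and the part that read support has in the share of partners was not tested further. Fold and reads ordered differently in wild type: paired peaks had a median fold over input of 5.82 with 85 reads, and unpaired ones 8.20 with 21 reads. In the knockout the medians were 8.30 with 118 reads and 7.20 with 34 reads. The median fold over all peaks of the 10 genes was 7.40 for wild-type and 7.66 for knockout peaks, beside 7.26 and 7.06 in all protein-coding genes.

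**Figure D2:**
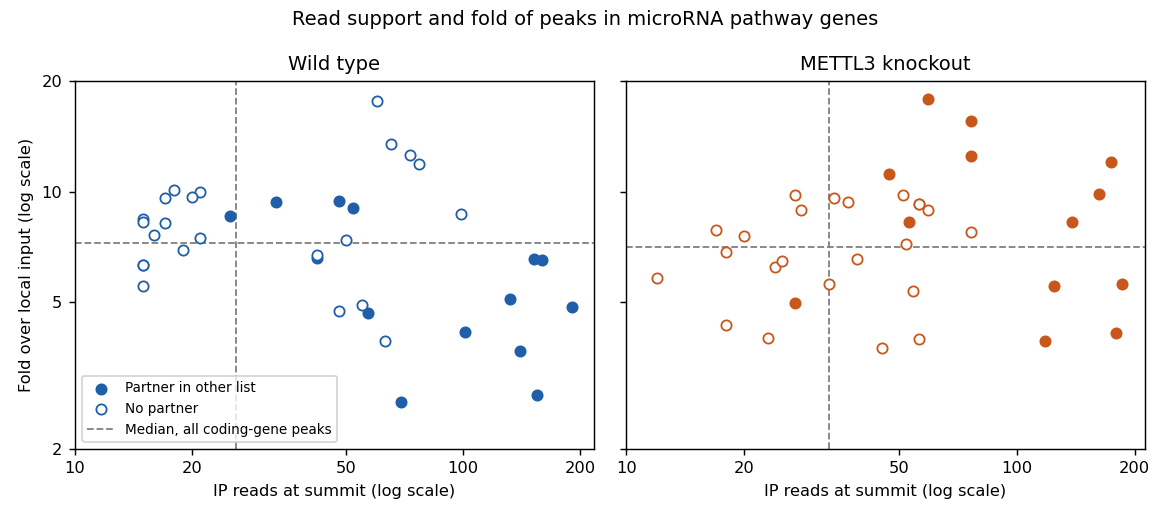
Fold over local input (y axis, log scale) against IP reads at the summit (x axis, log scale) for the 37 wild-type and 36 knockout peaks of the 10 genes. Filled points have a partner in the other list, and dashed lines are the medians over all peaks in protein-coding genes (26 reads and fold 7.26 in wild type, 33 and 7.06 in the knockout); all 7 peaks above 100 reads in each list are filled.

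Among the nuclear processing enzymes, DROSHA carried a pair of peaks toward each end of the gene. DROSHA lies on the minus strand at chr5:31400494-31532093. Its wild-type peak at chr5:31515155-31515374, 16.9 kb from the 5′ bound, had a fold of 5.10 on 132 IP reads, and the knockout partner at chr5:31515098-31515319 had 8.30 on 138 reads. The other pair lay about 131 kb from the 5′ bound, at 99.2% of the gene's length, with a fold of 3.69 on 140 reads in wild type and 5.53 on 124 in the knockout. These 4 peaks all rested on more than 100 reads. The unpaired DROSHA peaks had 50 and 48 reads in wild type and 59 in the knockout, with folds of 7.40, 4.74 and 8.94.

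DICER1, on the minus strand at chr14:95086228-95158010, had its peaks in a single cluster at about 85.4% to 86.0% of its length. The pair was chr14:95096099-95096400 in wild type (fold 6.59, 42 reads) and chr14:95096179-95096465 in the knockout (fold 3.93, 118 reads). A second wild-type peak at chr14:95096641-95096856 had a fold of 12.6, higher than 93.9% of wild-type peaks, on 73 reads. It had no partner, and the knockout peak lay 175 bp away. All 5 annotated DICER1 start windows were free of peaks in both lists.

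XPO5 had no peak on its own strand. It lies on the minus strand at chr6:43522334-43576038, and the knockout peak within its bounds, chr6:43526278-43526477 (fold 6.49, 25 reads), lies on the plus strand. POLR1C, which encodes a subunit of RNA polymerases I and III, overlaps XPO5 there and is transcribed from the plus strand. Counted on the strand of the gene, the knockout list thus held 35 peaks in 9 of the genes.

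Of the Argonautes, AGO4, AGO1 and AGO3 stand in a row on the plus strand of chromosome 1, and AGO2, which encodes the slicing Argonaute, lies on chromosome 8. The 4 genes had 1 pair of peaks at the same place among 9 wild-type and 9 knockout peaks (11.1% of each, interval 0.281 to 48.2). That pair was in AGO4, about 6.04 kb from its 5′ bound, at chr1:35813575-35813811 in wild type (fold 9.42, 48 reads) and chr1:35813569-35813824 in the knockout (fold 17.9, 59 reads). The knockout peak was above 98.8% of its list by fold and was the highest fold of the 10 genes in that list. A further knockout peak lay 144 bp from the wild-type one, with a fold of 6.25 on 24 reads.

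AGO2 had the highest wild-type fold of the 10 genes. Its peak at chr8:140622666-140623135, on the minus strand, had a fold of 17.7 on 60 reads, above 98.9% of the wild-type list. The knockout list held no peak within 70704 bp of it on that strand, and its own AGO2 peak, at chr8:140551715-140551961, had a fold of 6.55 on 39 reads. The wild-type peak also lies within the bounds of LOC107986982, annotated as protein-coding, so it cannot be credited to AGO2 alone.

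AGO3 had 5 wild-type and 3 knockout peaks, none at the same place. The wild-type peaks had 15 to 21 reads, with folds from 5.55 to 9.96, and lay at 3.59% to 95.9% of the gene. The 3 knockout peaks had 18, 56 and 20 reads. For each of the 8 the nearest peak of the other list on the strand was at least 17444 bp away. The wild-type peak at chr1:36009356-36009555 also overlaps LOC105378647, a noncoding gene of the minus strand. AGO1 had 0 wild-type peaks. Its only knockout peak, at chr1:35897015-35897347, had a fold of 5.38 on 54 reads and lay 38364 bp from the nearest wild-type peak, which belongs to AGO3.

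**Figure D3:**
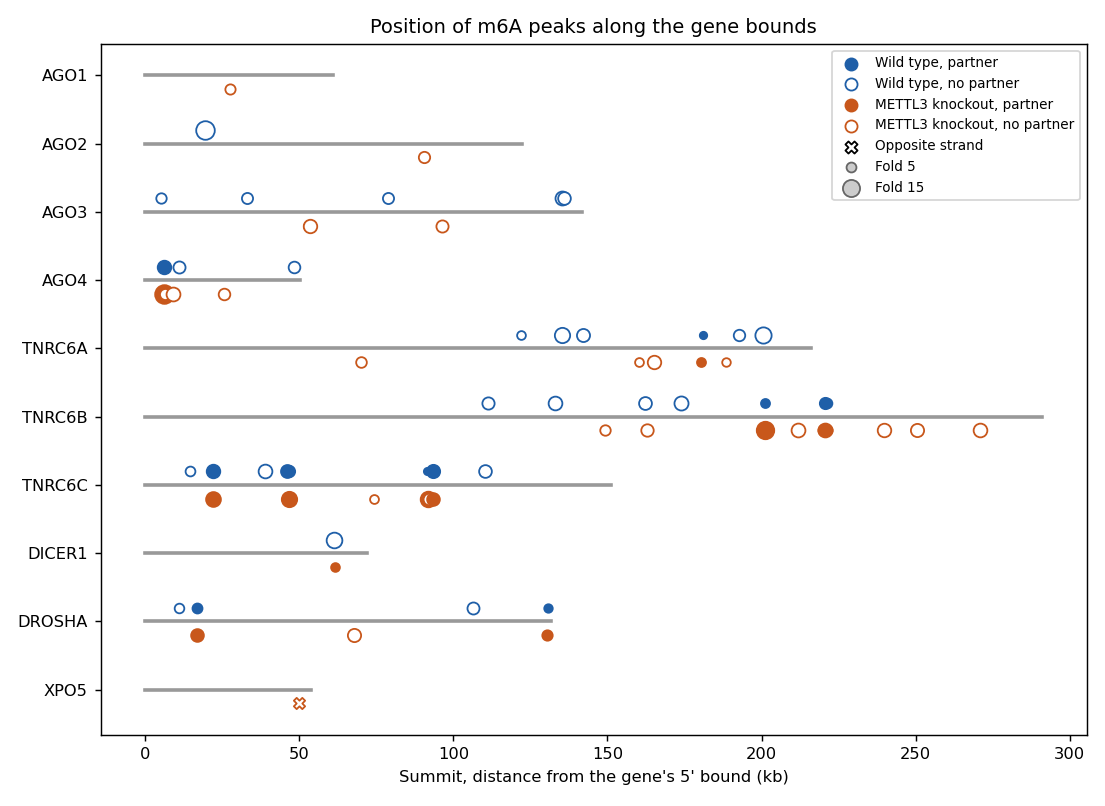
Summit of each peak by its distance in kb from the 5′ bound of its gene (x axis; grey bars show gene length), with wild-type peaks above and METTL3-knockout peaks below the bar. Symbol area is proportional to the fold over local input, filled symbols have a partner in the other list, and the cross is the XPO5 peak on the opposite strand; close symbols overlap, and no peak of TNRC6A or TNRC6B lies in the first 50 kb.

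The TNRC6 genes held 10 of the 14 paired wild-type peaks of the pathway (45.5% of their 22, interval 24.4 to 67.8) and 9 of the 13 paired knockout peaks (40.9% of 22, 20.7 to 63.6). These intervals overlap those of the Argonaute genes, and the difference between the families was not tested.

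TNRC6A, at chr16:24610205-24826218 on the plus strand, was the exception among the 3, with 1 pair for 6 wild-type and 5 knockout peaks. Its paired peak was broad, 926 bp in wild type and 640 bp in the knockout, with low folds of 2.80 and 4.13 on 155 and 179 reads. Its highest folds were in unpaired wild-type peaks, 13.5 at chr16:24810507-24810781 on 65 reads and 11.9 at chr16:24745233-24745483 on 77 reads. A peak at chr16:24752110-24752324 had 99 reads, the most of any unpaired wild-type peak in the 10 genes, and a fold of 8.73. Each of these lay more than 5000 bp from the nearest knockout peak on the strand. The 4 unpaired knockout peaks had 12 to 56 reads and folds from 3.76 to 9.28. All 6 wild-type summits lay in the last 50% of the gene bounds, past the single start site at 24729651 for which the RefSeq table has a window, and 1 knockout peak of 12 reads lay before it.

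TNRC6B, at chr22:40044834-40335808 on the plus strand, had 3 pairs, 2 of them side by side at 75.9% and 76.1% of the gene. The first of these was chr22:40265355-40265720 in wild type (fold 6.57, 152 reads) and chr22:40265354-40265756 in the knockout (fold 9.83, 162 reads), with summits 15 bp apart. The neighbour at chr22:40265933-40266634 had 4.87 on 191 reads, and its partner had 5.61 on 185 reads, with summits 2 bp apart. A further knockout peak of 76 reads lay 130 bp before this group. All lie within the bounds of LOC124905121, a noncoding gene annotated on the minus strand, whereas the peaks are on the plus strand of TNRC6B. The third pair, at chr22:40245851-40246054, had summits 1 bp apart and folds of 4.15 in wild type on 101 reads and 15.6 in the knockout on 76 reads. The unpaired wild-type peaks had few reads, 15 to 18, but folds of 7.65 to 10.1, above those of the paired wild-type peaks. Of the 7 unpaired knockout peaks 3 lay beyond 80% of the gene, where wild type had none.

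TNRC6C, at chr17:77957557-78108835 on the plus strand, had the most peaks at the same places, 6 wild-type with 5 knockout partners. Peaks recurred near 21.9 kb from the 5′ bound, near 46.6 kb and between 91.4 and 93.5 kb. The strongest lay at chr17:78003995-78004217 in wild type, with a fold of 6.54 on 160 reads and a −log10 q of 42.7, and at chr17:78004001-78004235 in the knockout, with 12.1 on 174 reads and 58.4. Both values of −log10 q were the highest of the 10 genes in their list. The stretch from 91.4 to 93.5 kb held 3 wild-type peaks of 52 to 69 reads and 3 knockout peaks of 52 to 76 reads.

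The strongest TNRC6C peak ended just before an annotated start site. RefSeq (GRCh38.p14) gives 4 start windows for TNRC6C, and the third start site, at 78004237, lies inside the gene. Relative to it the wild-type peak ran from −242 to −20 bp with its summit at −105, and the knockout peak from −236 to −2 with its summit at −111. A second pair lay before it, from −716 to −516 bp in wild type and from −928 to −522 in the knockout, with 25 and 27 reads. The 250 bases before this start and, for contrast, the 250 bases before the first start, which held no peak, are printed here in the direction of transcription, since they let the letters under the strongest peak be read. Capitals mark matches to the core of the m6A consensus. The cores searched were AAAC and its variant AGAC, then GAAC and its variant GGAC, and finally TAAC and its variant TGAC.
TNRC6C, start with a peak, chr17:78003987-78004236, plus strand: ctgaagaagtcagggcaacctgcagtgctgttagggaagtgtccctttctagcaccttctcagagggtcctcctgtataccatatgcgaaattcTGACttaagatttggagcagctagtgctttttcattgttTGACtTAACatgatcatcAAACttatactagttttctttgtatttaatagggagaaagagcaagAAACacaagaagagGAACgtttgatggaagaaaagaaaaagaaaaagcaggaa
TNRC6C, start with no peak, chr17:77957307-77957556, plus strand: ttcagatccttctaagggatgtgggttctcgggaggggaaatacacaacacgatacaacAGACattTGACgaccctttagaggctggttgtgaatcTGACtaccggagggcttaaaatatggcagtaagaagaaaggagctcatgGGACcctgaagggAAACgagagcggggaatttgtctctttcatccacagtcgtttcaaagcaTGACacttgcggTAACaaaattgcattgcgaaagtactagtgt

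The stretch with the peak held 6 cores on the transcribed strand and 7 on the other, and GGAC was not among the 6. The printed stretch without a peak held 7 and 3, with GGAC once. Before the other TNRC6C starts, which also had no peak, the stretch at the second start held 1 and 4 cores and that at the last start 4 and 5. The number of cores thus did not set the stretch with the peak apart. As a background, the median over 35116 RefSeq stretches of this kind was 4 cores, 31.9% had 6 or more, and 59.0% held GGAC. The third base of a core, TAAC, lay 5 bp from the wild-type summit and 1 bp from the knockout summit, which lay within that core. Neighbouring cores began at −117 and −99 bp from the start, and no background for such distances was computed. The peak stretch had 39.2% G and C, beside a median of 58.0%, and held an unbroken run of 22 A and G letters near its 3′ end, from base 223 to 244. A run at least that long was present in 1.77% of all stretches; it was looked for after the sequence had been seen. Such matches describe letters and do not show which base was methylated.

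**Figure D4:**
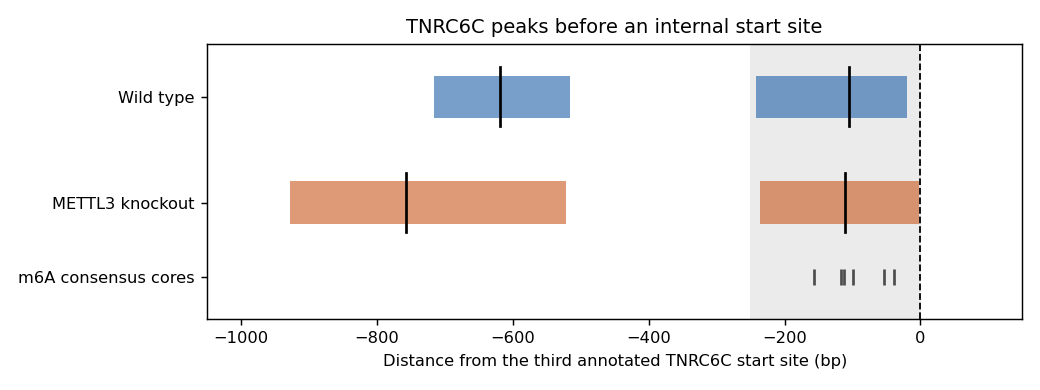
TNRC6C peaks around the third annotated start site (dashed line at 0 bp; x axis in bp). Bars span the wild-type (blue) and METTL3-knockout (orange) peaks, black ticks on them are the summits, grey shading is the stretch of 250 bases before the start, and the lowest row marks the 6 consensus cores in it; the nearer peak of each list ends 20 and 2 bp before the start.

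This was the only one of 16 start windows, for the 9 genes that have one in the table, with a peak on the strand of the gene in either list. The windows here run from 250 bp before to 50 bp after a start. Of all 35116 windows, 1.10% had a wild-type peak, 0.649% a knockout peak and 0.202% both.

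At the 14 overlapping pairs the enrichment of IP over local input, without the pseudocount of the fold, was compared directly. It was higher in the knockout at 11 of 14, beside 53.5% of all 5972 pairs. The median difference was 0.66 on the log2 scale, against 0.09 over all pairs (quartiles −0.65 and 0.81). A 95% interval was built from the recovered IP reads and inferred input reads, by a normal approximation on the log scale. The input reads were not observed, and the fewest whole reads that could give the local input were taken. Wild-type local inputs of 13.2 and 14.0 thus stood for 66 and 14 reads, so the widths depend on this choice. The interval lay above 0 at 4 pairs, beside 10.5% of all pairs, and below 0 at 1, beside 8.52%. The 4 were in AGO4 (1.74, interval 0.61 to 2.87), TNRC6B at chr22:40245851-40246054 (2.57, 1.19 to 3.95) and TNRC6C at chr17:78048756-78048955 (2.71, 0.53 to 4.89) and chr17:78050348-78050755 (1.14, 0.02 to 2.26). The last of these overlapped its partner by 61 bp, with summits 546 bp apart. The same knockout peak also overlapped the wild-type peak at chr17:78050911-78051300, with summits 1 bp apart, and so counts in more than 1 pair. That pair differed by −0.07 (−1.35 to 1.21). The 1 below 0 was in DICER1 (−1.04, −2.02 to −0.06). The strongest TNRC6C pair differed by 1.00 (−0.41 to 2.42), and both DROSHA pairs had intervals that included 0.

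On the scale of each genotype's own input, the input part of these differences was mostly larger than the IP part. The local input is the input level, in reads, that the peak caller set against the IP at the summit. The TNRC6B pair had 14.0 in wild type against 1.40 in the knockout, with 101 and 76 IP reads. At the TNRC6C pair of largest difference it was 15 and 2.0, with 69 and 76 IP reads, and in AGO4 it was 2.2 and 0.64, with 48 and 59. Split on the log2 scale into an IP part, after scaling of the reads, and an input part, the input part was the larger at 13 of 14 pairs (74.1% of all pairs). Its median size was 1.18, against 0.28 for the IP part, beside 0.84 and 0.39 over all pairs, where the input part was thus also the larger. The IP part was below 0 at 12 of 14 pairs, and its range was −0.75 to 1.10. The share of all pairs with an IP part below 0 was not counted. Over all pairs the median IP part was −0.13 and the median input part −0.17. Both parts are on the scale of each genotype's own input. A difference in input depth between the genotypes would enter both parts and cancel only in their difference. Neither the sign nor the size of 1 part alone can therefore be read as a change, and which part is the larger also depends on that depth. The local input was lower in the knockout at 12 of 14 pairs, beside 56.1% of all pairs. The highest IP part, 1.10, belonged to DICER1, where the local input was also higher in the knockout (12.4 against 2.80).

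**Figure D5:**
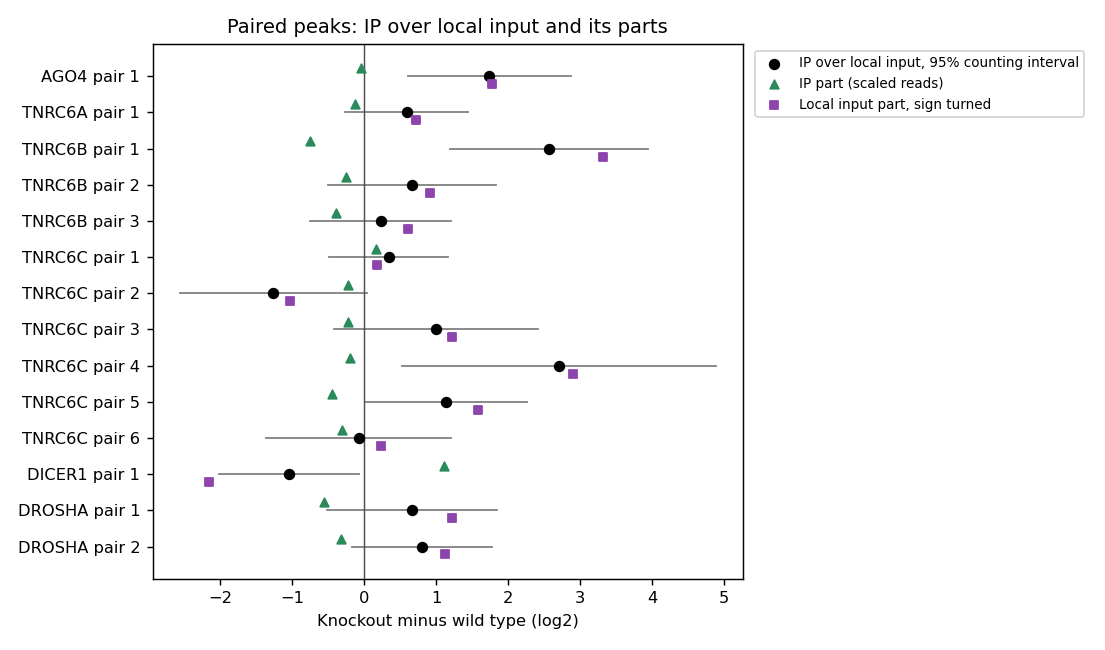
Knockout minus wild type, on the log2 scale (x axis), at each of the 14 overlapping pairs of peaks, numbered by position within a gene. Black points give IP over local input with its 95% counting interval. Green triangles give the part from scaled IP reads and purple squares the part from local input with its sign turned. Both parts are on the scale of each genotype's own input. The triangles of 12 pairs lie below 0 and the black points of 11 above it.

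Unpaired peaks were mostly far from any peak of the other list, as in other genes. Of 23 unpaired wild-type peaks 19 lay more than 5000 bp from the nearest knockout peak on their strand, beside 79.1% in all protein-coding genes. Of 23 unpaired knockout peaks 17 did, beside 73.3%. Within 500 bp the counts were 2 and 4, beside 3.89% and 5.21%. A peak that is not in a list can still have had signal below the caller's threshold, and the lists give no value at such places. Along the genes, cut into 4 equal lengths from the 5′ bound, wild-type summits numbered 9, 5, 11 and 12 and knockout summits 5, 7, 12 and 12. Local input was below 1 read (recovered values under 0.99, since values of 1 carry rounding) at 14 of 37 wild-type peaks, beside 48.2% in all protein-coding genes, and at 8 of 36 knockout peaks, beside 47.6%. Whether a peak lay in an exon or an intron was not analysed here.

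Of 67 other genes of the pathway, 29 had peaks in both lists, 11 in wild type alone, 8 in the knockout alone and 19 in neither, strand not considered. Among all protein-coding genes these shares were 26.6%, 13.0%, 8.22% and 52.2%. The 67 were not matched for length, and the share with peaks in both lists was 53.2% among protein-coding genes of 50255 to 290975 bp. They held 110 wild-type peaks, 25 with a partner (22.7%), and 92 knockout peaks, 25 with a partner (27.2%), close to the 21.3% and 26.5% of all protein-coding genes. Of the 67, 0 passed the test of peak number. The genes named below were chosen by wild-type fold, so those of the 8 with knockout peaks alone could not be among them. NCBP1, TSNAX and TENT2, for instance, held 0 wild-type and 3 knockout peaks each. The balance of the lists over the named genes therefore leans to wild type and is not a result.

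Among the groups of other genes, those that control microRNA tails and let-7 stood highest in partners, with 14 of 33 wild-type peaks (42.4%). The share in all protein-coding genes was 21.3%. Of the 14, XRN2 held 4 and TUT4 held 3. The group was singled out after the shares were known, read support was not compared, and the difference was not tested. LIN28B, a blocker of let-7 maturation, had the highest wild-type fold, 20.7, with 3 wild-type and 1 knockout peak. The exonuclease gene DIS3L2 held 8 and 12 peaks with 2 shared, the uridylyl transferase gene TUT7 5 and 6 with 3 shared, and ERI1 2 and 0. Among Dicer partners and loading factors 6 of 12 genes had peaks in both lists. DDX20 had 1 peak in each, at the same place, with folds of 19.4 and 12.5. PRKRA, which encodes the Dicer cofactor PACT, and IPO8 had wild-type peaks alone, 2 and 3, and FAM120A had 1 and 1.

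Nuclear processing genes held 9 peaks in wild type and 8 in the knockout. Of these 15 genes 8 had none, close to the 52.2% of all protein-coding genes. SAFB held 1 and 3, SAFB2 4 and 0, SRRT 1 shared pair among 2 and 1, and DDX17 1 and 0. DGCR8, the partner of DROSHA in primary microRNA cutting, lies outside the rule by which these genes were named and had 1 and 0, the wild-type peak with a fold of 2.78. The deadenylation genes held 32 wild-type and 24 knockout peaks, 4 of each shared. CNOT2, a subunit of the CCR4-NOT complex, had 12 and 3 with 2 shared, CNOT10 4 and 6 with 2 shared, CNOT6 2 and 3, and TOB2 1 and 0. Decapping and decay genes held 23 and 14, 2 of each shared. LSM14A had 7 and 1, XRN1 4 and 3, DDX6 1 and 2 with 1 shared, and LIMD1 5 and 1 with 1 shared.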

How the data were processed

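The data are 2 lists of m6A peaks from chromosome-associated RNA of HEK293T cells, 1 per genotype. Per the submitters' processing notes, the authors used MACS2 2.2.7.1, HISAT2 2.2.1 and SAMtools 1.15.1 on hg38. Pooling of replicates before calling is not stated in the sources used here. The deposited fold is the ratio of IP to local input on a linear scale, the deposited −log10 columns hold p and q values, and the deposited display score was not used. The lowest −log10 q was 2.01 (wild type) and 2.02 (knockout).

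Gene bounds, start windows and sequences came from RefSeq GRCh38.p14; the strand of AGO2 is background knowledge. IP reads and local input were recovered as the whole read number that, under the fold (IP + 1) / (input + 1) and a Poisson p-value, gave the listed −log10 p within a relative 0.0002 and at least 2 times nearer than any other number; 96.9% or more of the peaks of each list and strand gave one. Genes were compared by Fisher's exact test, adjusted by Benjamini-Hochberg, and the script was tested on simulated data, with Python 3.11.15, numpy 2.4.6, pandas 2.3.3, SciPy 1.17.1 and matplotlib 3.10.9. Member genes and lists were chosen with earlier results of these data known. Other pathway genes were named as up to 4 per group with the highest wild-type fold, a rule that leaves out genes with knockout peaks alone. Alternatives changed the overlap, strand, threshold, list length and gene assignment.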

Additional observations from a re-analysis of the deposited data

How the results depend on the processing

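Over 7 alternatives, 36 of 36 recomputed values kept near the main one: every share and median of fold stayed inside the main interval, and each count moved by at most 5. The shares of peaks with a partner moved most: in wild type from 24.3% with reciprocal overlap of 50% to 43.2% with a partner within 500 bp, and in the knockout from 25% to 47.2%. In all protein-coding genes the same settings gave 17.7% and 24.4% for wild-type peaks, then 22.1% and 30.3% for knockout peaks. Limiting the lists to a −log10 q of 5 or more left 36 and 31 peaks. Of all genes, those called by the test of peak number were 3 or 4 under every alternative run. No paired analysis was possible because the files hold 1 list per genotype and no value per replicate. For the same reason no replicate could be left out. In protein-coding genes 5.27% to 13.5% of peaks with up to 30 IP reads had a partner, by list and class of reads, which limits what their absence from the other list can show.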
